A study of Mus musculus with 12 samples.

Results

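The genes described here are the transcription factors that pattern the mouse embryo along its axes and into its organs: the Hox, Sox, Pax, Six-family, Dlx, Lhx, Tbx and Meis genes, with the Eya genes, whose products are partners of Six-family proteins. Within these families the members were taken by name, as every row of the deposited expression table whose symbol is one of these family names followed by a number. This rule was met by 98 of the 29428 genes in the table. They comprise 36 Hox genes (11 of the HoxA cluster, 9 of HoxB, 9 of HoxC and 7 of HoxD), 18 Sox, 11 Tbx, 8 Lhx, 7 Pax, 6 Dlx, 5 Six-family, 4 Eya and 3 Meis genes.

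Hox genes lie in 4 clusters, and the order of the genes in a cluster follows the head-to-tail position at which each is switched on in the embryo. They mark the hindbrain, the spinal cord and the tissues of the trunk, and they are normally silent in the forebrain, where the striatum forms. Meis proteins bind DNA together with Hox proteins. Pax6, Sox2 and Lhx2 are used in forebrain progenitors, Dlx and Lhx6 proteins in the ganglionic eminences that give rise to striatal neurons and interneurons, and Sox9, Pax9, Tbx15, Six2 and Eya4 in many other tissues, the skeleton, the kidney and the inner ear among them.

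RNA-seq was performed on STHdhQ7 and STHdhQ111 cells, which are immortal cell lines made from the striatum of mice whose huntingtin gene codes for a normal (Q7/Q7) or an expanded (Q111/Q111) polyglutamine stretch. Nontreated cells (Q7-C and Q111-C) were compared with cells given 100 ng/mL IFNγ together with 5 μg/mL LPS over 24 h (the Q7-T and Q111-T groups), with 3 libraries in each of the 4 groups. Each genotype is represented by 1 cell line, so that a difference between the huntingtin genotypes and any other difference between the lines cannot be told apart. The study calls the libraries of a group biological replicates; they are replicates of 1 line, and p-values measure the spread between these libraries.

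The 12 libraries held between 57505990 and 96417834 estimated counts. Q7-T replicate 2 stood apart from the rest: over all genes tested it lay nearest to Q7-C replicate 1, and it gave the lowest TPM (the level scaled for transcript length and library size) of its group for 69.3% of all genes tested and for 42 of the 60 patterning factors tested. Q7-C replicate 1 was the lowest of its group for 65.9% of all genes and 30 of these 60 factors, and Q111-T replicate 2 for 60.7% and 24. The part of these libraries in the results was not tested beyond leaving each one out. The 6 genes used to check the treatment, such as Nos2, Irf1 and Cxcl10, passed the test as higher in treated cells of both lines, and their summed level rose from between 28.6 and 59.4 TPM in Q7-C to between 1349 and 2666 TPM in Q7-T, and from between 162 and 198 TPM in Q111-C to between 6780 and 7092 TPM in Q111-T.

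The label of a striatal neuronal line was checked against markers. Of striatal projection neuron markers, 8 were in the table and 2 passed the filter on low values. Their summed level was 0.377 to 0.906 TPM across Q7-C and 5.23 to 6.92 TPM in Q111-C (0.376 to 0.812 TPM in Q7-T and 2.63 to 3.14 TPM in Q111-T), most of it in Q111-C from Penk, and Pdyn did not exceed 0.00866 TPM. The 6 neural progenitor markers, which include Sox2 and Pax6 of the genes described here, summed to between 2412 and 2780 TPM across Q7-C and between 2409.6 and 2525 TPM in Q111-C (1755 to 2078 TPM in Q7-T and 1162 to 1225 TPM in Q111-T), most of it from Vim, while Nes stood at 54.6 ± 16.7 TPM across Q7-C and 7.31 ± 0.405 TPM in Q111-C. Summed mesenchymal markers stood at 2109 to 2582 TPM in Q7-C, 1695 to 2040 TPM in Q7-T, 1819 to 2067 TPM in Q111-C and 599 to 923 TPM in Q111-T, and of the 8 tested, 5 were higher and 2 lower in Q111-C than in Q7-C. Col1a1 stood at 265 ± 30.6 and 791 ± 14.3 TPM, and Acta2 at 1669.6 ± 106 and 43.7 ± 16.8 TPM (mean ± SD, n = 3, as throughout). The 7 endothelial markers, which include Sox17 and Sox18, summed to at most 1.83 TPM in any library. The 5 microglia and macrophage markers summed to 12.04 to 13.3 TPM in Q7-C, 3.07 to 3.49 TPM in Q7-T, 17.7 to 20.5 TPM in Q111-C and 5.00 to 5.80 TPM in Q111-T; the 1 tested was called as lower with treatment in both lines, and the defining marker Ptprc did not exceed 0.00642 TPM. Of the neural progenitor markers 4 of 6 tested were lower in Q111-C. The 6 neuron markers summed to 94.5 to 104 TPM in Q7-C, 132 to 168 TPM in Q7-T, 9.89 to 13.8 TPM in Q111-C and 31.1 to 35.0 TPM in Q111-T, and 2 of 3 tested were lower in Q111-C. The 7 astrocyte markers summed to 15.6 to 41.7 TPM in STHdhQ7 and 69.98 to 89.2 TPM in STHdhQ111 libraries, and the 5 oligodendrocyte lineage markers to 9.27 to 17.4 TPM in Q7-C, 2.92 to 6.21 TPM in Q7-T, 27.5 to 34.6 TPM in Q111-C and 11.4 to 20.6 TPM in Q111-T. Markers of several cell types thus moved with the lines or with treatment, as the patterning factors did, and their part in the results was not tested. In bulk RNA, a different number of cells of a kind and a different amount of RNA per cell cannot be told apart.

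Of the 98 factors, 60 reached 0.5 TPM in at least 3 of the 12 libraries and were tested, among 16127 genes in all. The other 38 stayed below that filter. The filter itself favoured differences between the lines, since 26 factors passed in both lines, 25 passed through the STHdhQ111 libraries alone and 9 through the STHdhQ7 libraries alone. In Q111-C, 44 factors were at 0.5 TPM or more in all 3 libraries and 13 at 10 TPM or more, against 34 and 8 in Q7-C.

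**Figure D1:**
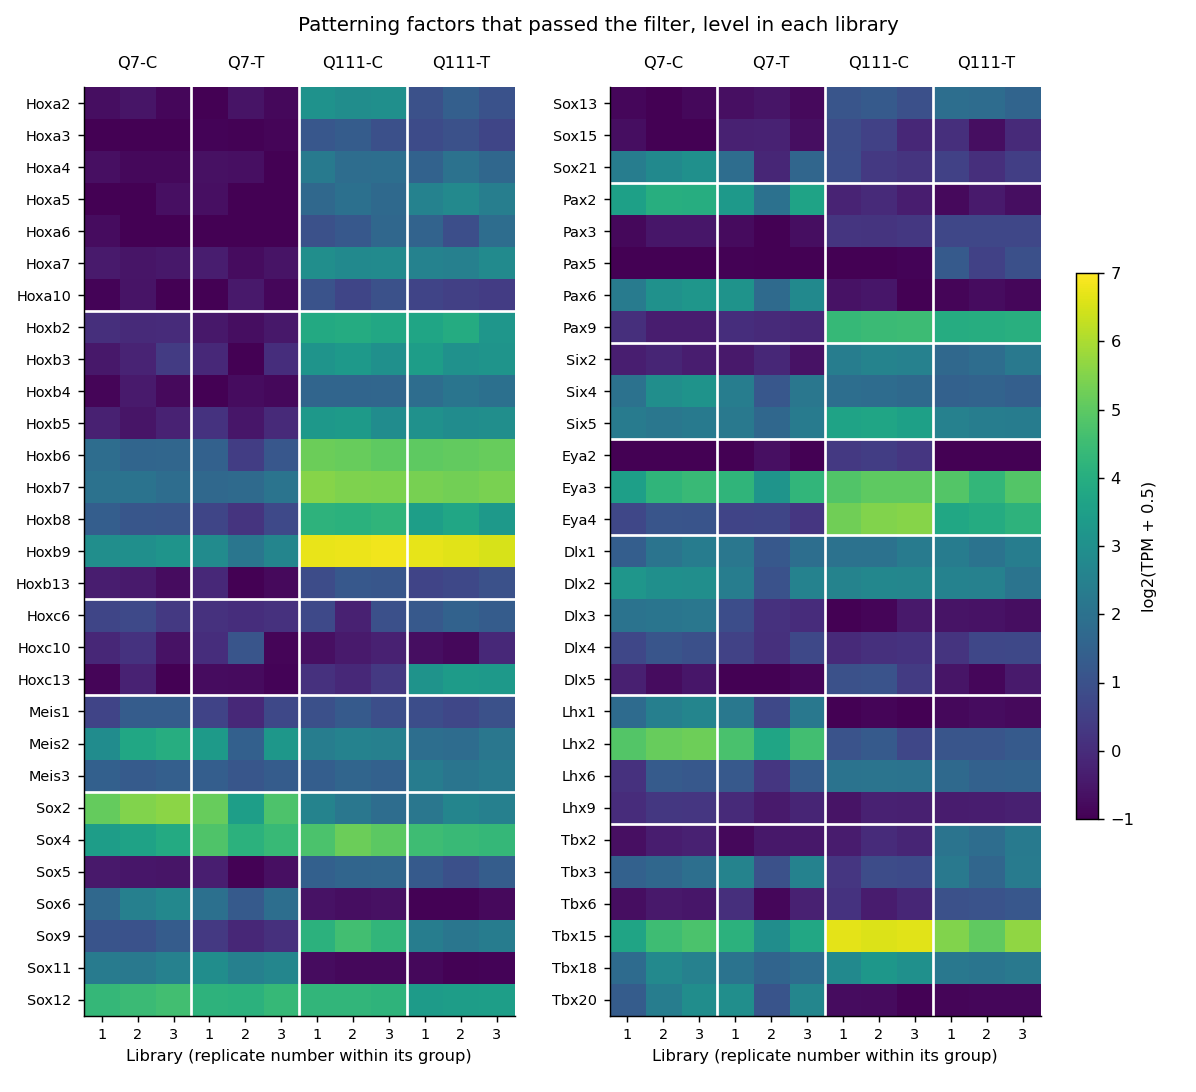
Level of 58 of the 60 patterning factors that passed the filter, as log2(TPM + 0.5) in colour, with 1 column for each of the 12 libraries and white lines between groups and families. Within each Hoxa and Hoxb row the 6 STHdhQ111 libraries are all brighter than the 6 STHdhQ7 libraries, and within the rows of Sox2, Sox11, Pax2, Pax6, Lhx1, Lhx2 and Tbx20 they are all darker.

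A gene was called when edgeR's quasi-likelihood test gave an adjusted p under 0.05 and the log2 fold change was at least 1 in size. Between the nontreated lines 44 factors were called (28 higher and 16 lower in Q111-C), which is 44.9% of all 98, while 15.2% of all genes tested were called, 7.62% as higher and 7.61% as lower. The groups of 3 libraries did not overlap in TPM for 53 of the 60 factors, against 51.4% of all genes tested. Between the treated lines 42 factors were called (29 higher and 13 lower in Q111-T), 42.9% of the 98, against 24.5% of all genes (13.3% higher and 11.2% lower). The groups did not overlap for 47 of 60 factors and for 46.3% of all genes. The same 34 factors were called in both conditions, each in the same direction, 22 as higher and 12 as lower in STHdhQ111 cells. A further 10 were called in nontreated cells only and 8 in treated cells only, and 8 in neither (Dlx1, Dlx2, Dlx5, Eya3, Hoxc10, Meis1, Meis3 and Tbx18). Some of the factors called between the lines reached 0.5 TPM in 1 group only. They were Lhx9 and Eya2 between the nontreated and Pax5 and Tbx2 between the treated lines, and the filter favoured these calls.

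The scale of the values bears on the balance of directions. On the TPM scale the median of all genes lay 0.27 (log2) above Q7-C in Q111-C and 0.34 above Q7-T in Q111-T, and 66.0% and 79.1% of the calls made by limma on log2(TPM + 0.5) were then higher in STHdhQ111, against 50.0% and 54.2% in the edgeR test, whose scaling puts these medians at -0.02 and -0.03. No factor called by edgeR changed direction under any alternative scaling, filter or test, and 34 of the 44 and 34 of the 42 kept their calls under all of them.

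Promoter sequence is given for context. RefSeq windows of 300 bases (build GRCm38.p6, 250 bases before to 50 after the start site) were found for 63 of the 98 factors, 38 of them tested. The factors' windows held a median of 17 CG dinucleotides, against 7 in all 32851 windows, and their median GC content was 61.0% against 52.7%. The 250 bases before the start site are shown for 2 factors higher in STHdhQ111 cells (Hoxb8 and Hoxa5), 2 higher in STHdhQ7 cells (Lhx2 and Pax6) and 1 that rose with treatment in STHdhQ111 cells (Pax5). They are written 5′ to 3′ on the strand of the gene, in lower case with each CG in capitals. The Hoxb8 stretch is chr11:96281655-96281904 (plus strand) and that of Hoxa5 chr6:52204588-52204837 (minus strand). The others are Lhx2 chr2:38339031-38339280 (plus strand), Pax6 chr2:105668646-105668895 (plus strand) and Pax5 chr4:44710695-44710944 (minus strand).
Hoxb8: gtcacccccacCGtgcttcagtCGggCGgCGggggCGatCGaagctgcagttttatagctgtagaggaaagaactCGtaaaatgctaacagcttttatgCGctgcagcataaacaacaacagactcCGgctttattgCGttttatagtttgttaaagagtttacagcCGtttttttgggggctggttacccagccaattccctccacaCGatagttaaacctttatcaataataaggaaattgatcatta
Hoxa5: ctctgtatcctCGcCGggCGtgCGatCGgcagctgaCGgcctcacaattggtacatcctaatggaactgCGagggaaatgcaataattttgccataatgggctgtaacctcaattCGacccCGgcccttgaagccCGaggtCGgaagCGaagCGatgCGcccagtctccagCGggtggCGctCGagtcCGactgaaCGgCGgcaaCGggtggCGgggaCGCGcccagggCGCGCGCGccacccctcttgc
Lhx2: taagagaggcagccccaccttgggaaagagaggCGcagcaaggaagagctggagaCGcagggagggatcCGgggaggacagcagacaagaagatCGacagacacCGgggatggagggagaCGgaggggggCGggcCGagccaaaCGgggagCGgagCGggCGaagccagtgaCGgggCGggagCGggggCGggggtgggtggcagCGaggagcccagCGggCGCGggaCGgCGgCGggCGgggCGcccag
Pax6: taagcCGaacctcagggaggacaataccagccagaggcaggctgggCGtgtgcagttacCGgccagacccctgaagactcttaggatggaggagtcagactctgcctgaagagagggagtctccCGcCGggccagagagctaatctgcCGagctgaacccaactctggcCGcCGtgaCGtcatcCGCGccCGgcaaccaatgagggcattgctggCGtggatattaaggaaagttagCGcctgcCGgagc
Pax5: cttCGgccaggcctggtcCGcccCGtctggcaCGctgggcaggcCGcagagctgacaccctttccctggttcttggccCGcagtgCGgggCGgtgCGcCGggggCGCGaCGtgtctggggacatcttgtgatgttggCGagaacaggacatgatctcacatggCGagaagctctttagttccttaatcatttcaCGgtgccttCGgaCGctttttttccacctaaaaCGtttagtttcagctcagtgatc

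These 5 stretches hold 12, 28, 25, 15 and 19 CG dinucleotides in the order shown. Motifs were searched in the 300-base windows on both strands. TTCNNNGAA, the letters of the gamma-activated site of IFNγ signalling, was found in the windows of 4 factors (Hoxd4, Lhx3, Sox13 and Sox6), and 8.3% of all windows hold it. The interferon-stimulated response element, written as 2 copies of GAAA with 2 bases between them, was found in 0 factor windows and in 3.44% of all windows. TGATNNAT, a Hox and Pbx site, was found in 5 (Hoxa2, Hoxb8, Lhx4, Tbx10 and Tbx6) against 8.85% of all windows, and TATAAA in 7 against 13.6%. None of the 4 motifs was found in the windows of Hoxa5, Lhx2, Pax6 or Pax5. The RefSeq start of Pax5 used here lies 207 bases from the 5′ end of the gene in the deposited table, that of Pax6 lies 4 bases from it, and those of Hoxb8, Hoxa5 and Lhx2 lie at that end. Some starts lie far from it, such as those of Hoxd4 (10049 bases) and Lhx4 (9657 bases). The bases just after the start site were found in a transcript of the gene for 51 of the 63 windows.

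The HoxB cluster had the highest levels of all Hox genes. Its 9 genes lie in order on chromosome 11 between Hoxb13 (chr11:96194316-96197447) and Hoxb2 (chr11:96350525-96354012), and their levels summed to 17.5, 16.8 and 17.5 TPM in Q7-C, 14.6, 8.72 and 13.8 TPM in Q7-T, 240.1, 241 and 237 TPM in Q111-C and 221, 218 and 206 TPM in Q111-T. The lines were thus far apart in both conditions. All 9 genes had groups that did not overlap between the lines in either condition, 8 were called as higher in Q111-C and 9 as higher in Q111-T. Over all genes tested 51.4% and 46.3% did not overlap, and 7.62% and 13.3% were called as higher. As neighbours in 1 cluster they are not independent of each other.

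Hoxb9 (ENSMUSG00000020875, chr11:96271457-96276595, plus strand) was the most abundant Hox gene in every group. It was measured at 7.28, 7.48 and 8.29 TPM across Q7-C and at 105, 108 and 112 TPM in Q111-C, with 6.71, 3.90 and 5.75 TPM in Q7-T and 103, 98.8 and 91.4 TPM in Q111-T. Every STHdhQ111 library was far above every STHdhQ7 library. The edgeR fold was 11.2 between the nontreated lines (log2 3.49, SE 0.16, adjusted p = 1.26e-07) and 13.8 between the treated lines (adjusted p = 1.2e-07). Hoxb9 made up 44.4% of the HoxB sum in nontreated and 44.2% in treated STHdhQ7 cells, and 45.3% and 45.4% in STHdhQ111 cells, so that its share was nearly the same in the lines although the sum was not.

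Within the cluster, Hoxb7, Hoxb6 and Hoxb8 followed in that order of mean level in both nontreated lines, and Hoxb2 came next in both, although in Q7-C its range lay within that of Hoxb3 (0.218, 0.377 and 0.810 TPM). Hoxb7 (chr11:96286623-96290162) stood at 3.54, 3.61 and 3.13 TPM across Q7-C and 45.9, 43.6 and 42.4 TPM in Q111-C, a 10.1-fold difference (adjusted p = 2.25e-06). Hoxb6 (chr11:96292476-96301569) stood at 3.13, 2.54 and 2.61 and 36.1, 34.7 and 31.6 TPM, a 9.63-fold difference (adjusted p = 3.26e-06). Their ranges did not overlap in Q111-C, whereas in Q7-C the highest Hoxb6 library reached the lowest Hoxb7 library. Hoxb8, whose upstream stretch is shown above, stood at 2.15, 1.70 and 1.66 and 17.6, 16.6 and 18.3 TPM (7.38-fold, adjusted p = 1.71e-05). Hoxb2 stood at 0.556, 0.462 and 0.486 and 14.1, 14.5 and 13.5 TPM (21.5-fold, adjusted p = 1.38e-06). Hoxb5 (8.61 ± 1.50 TPM) and Hoxb3 (8.46 ± 0.986 TPM) stood next in Q111-C and could not be told apart by their ranges.

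The remaining HoxB genes were low in STHdhQ7 cells. Hoxb5 differed 22.5-fold, Hoxb3 15.0-fold and Hoxb4 18.1-fold between the nontreated lines (adjusted p = 4.44e-06, 0.0045 and 0.00277). Hoxb13, which lies apart from the rest of its cluster and marks the tail end of the body, stood at 0.279, 0.241 and 0.104 TPM across Q7-C and 1.33, 1.78 and 1.71 TPM in Q111-C and did not pass the test there (adjusted p = 0.0656). It was called between the treated lines (6.31-fold, adjusted p = 0.0391). The Hoxb13 call was lost under 11 of 22 alternatives (adjusted p up to 0.113), among them the omission of any 1 of 8 of the 12 libraries.

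The HoxA cluster was close to the limit of detection in STHdhQ7 cells and present throughout STHdhQ111 cells. Its 11 genes on the minus strand of chromosome 6 summed to 0.616, 0.694 and 0.470 TPM across Q7-C and 29.8, 26.9 and 27.2 TPM in Q111-C, and to 0.755 ± 0.320 TPM in Q7-T and 24.0 ± 0.959 TPM in Q111-T. All 8 HoxA genes tested were called as higher in Q111-C and 7 of them as higher in Q111-T, beside the same 7.62% and 13.3% of all genes. No STHdhQ7 library reached 0.5 TPM for any of the 8, so all passed the filter through STHdhQ111 libraries alone. The filter thus favoured this direction, and the counts are given as a description. Hoxa9, Hoxa11 and Hoxa13, which with Hoxa10 form the tail end of the cluster, stayed below the filter, with at most 0.408, 0.122 and 0.168 TPM in any library.

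Hoxa7 (ENSMUSG00000038236, chr6:52214491-52221854) and Hoxa2 (chr6:52162417-52164831) had the highest levels of the cluster in Q111-C. Hoxa7 was measured at 0.244, 0.187 and 0.222 TPM across Q7-C and 7.17, 6.46 and 6.56 TPM in Q111-C (23.7-fold, log2 4.57, SE 0.31, adjusted p = 1.45e-06). Hoxa2, which patterns the hindbrain and the second branchial arch, was measured at 0.116, 0.179 and 0.0517 TPM across Q7-C and 7.94, 7.06 and 7.42 TPM in Q111-C. Every STHdhQ7 library held 12 or fewer estimated counts of Hoxa2, a floor taken as 3 read pairs in a library, so that it was at least 34.3-fold higher in Q111-C (adjusted p = 0.000635) and at least 7.47-fold higher in Q111-T (adjusted p = 0.00438). Hoxa2 shares 15.0% of its annotated exon bases with a gene model that also overlaps Hoxa3, and reads there could have been counted for either.

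Hoxa3, Hoxa4, Hoxa5 and Hoxa6 were at or under the same floor in all 6 STHdhQ7 libraries. Hoxa3 was at least 26.9-fold higher in Q111-C, where it stood at 1.73, 2.03 and 1.42 TPM (adjusted p = 1.46e-06). Hoxa5 (chr6:52201754-52204587) was at least 14.4-fold higher in Q111-C (2.75, 3.35 and 2.82 TPM, adjusted p = 0.00348) and at least 24.8-fold higher in Q111-T (5.28, 6.34 and 4.82 TPM, adjusted p = 0.00118). The STHdhQ111 libraries of these genes all lay above all STHdhQ7 libraries. For Hoxa4 and Hoxa6 the lower bounds between the nontreated lines were 14.7-fold and 4.51-fold (adjusted p = 0.00164 and 0.00597). Hoxa10 (0.0316, 0.165 and 0 TPM across Q7-C and 1.59, 1.10 and 1.48 TPM in Q111-C) was called between the nontreated lines only (adjusted p = 0.0399). The Hoxa10 call was lost under 9 of 22 alternatives (adjusted p up to 0.112), among them the omission of any 1 of 8 of the 12 libraries.

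The 9 HoxC genes on chromosome 15 summed to 2.97 ± 0.355 TPM across Q7-C and 3.27 ± 0.243 TPM in Q111-C, and 0 of the 3 tested were called between the nontreated lines by edgeR, limma on log2(TPM + 0.5) or DESeq2, with 0 at an unadjusted p under 0.05 by edgeR. Of all genes 15.2% were called there. In Q111-T against Q7-T 2 of the 3 were called as higher in Q111-T, beside 13.3% of all genes, and the sums were 2.42 ± 0.814 and 12.5 ± 1.12 TPM. Hoxc13 was at least 54.2-fold higher in Q111-T (adjusted p = 0.000602), and Hoxc6 was the other (log2 fold change 1.39, SE 0.51, adjusted p = 0.0483), a call lost under 11 of 22 alternatives. Without treatment Hoxc6 stood at 1.08, 1.21 and 0.759 TPM across Q7-C and 1.21, 0.326 and 1.43 TPM in Q111-C, with ranges that overlapped. The 7 HoxD genes on chromosome 2 all stayed below the filter, and their sum did not exceed 0.394 TPM as a group mean, in Q7-T, where Q7-T replicate 2 held most of it (Hoxd8 at 0.160, 0.563 and 0 TPM). 

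**Figure D2:**
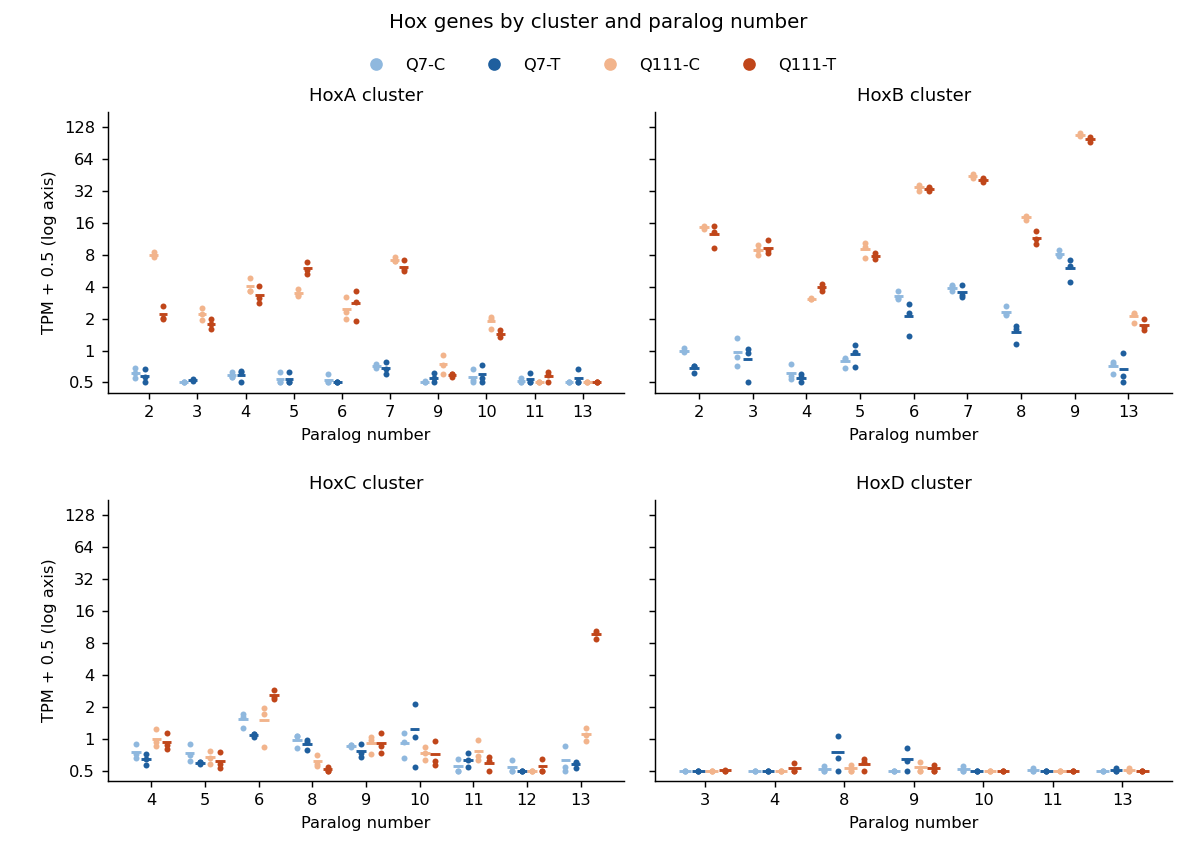
TPM + 0.5 on a log axis for 35 of the 36 Hox genes, by cluster and by paralog number, with 1 point per library and a line at the mean of each group. The Q111-C and Q111-T points of the HoxA and HoxB clusters lie above the STHdhQ7 points from paralog 2 to paralog 10 and at Hoxb13, apart from Hoxa9 in treated cells; Hoxc13 is high in Q111-T alone, and the HoxD genes lie near 0 TPM in all groups.

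Meis genes, which code for homeodomain partners of Hox proteins, were present in both lines. Meis2, an early marker of the developing striatum, was the most abundant, at 6.88, 13.1 and 15.3 TPM across Q7-C and 4.71, 5.31 and 5.14 TPM in Q111-C, with a log2 fold change of -1.49 (SE 0.30, adjusted p = 0.00403) by edgeR. The ranges of the 2 groups did not overlap, but limma on the TPM scale did not call Meis2 at any of 3 pseudocounts (adjusted p up to 0.142). Meis1 (1.71 ± 0.551 and 1.59 ± 0.284 TPM) and Meis3 (2.13 ± 0.149 and 2.31 ± 0.216 TPM) were called in 0 of 5 comparisons each by edgeR, limma or DESeq2, with unadjusted p under 0.05 in 1 and 3 of them, and Meis3 passed the adjusted p but not the fold in treated STHdhQ111 cells (log2 fold change 0.97, SE 0.24, adjusted p = 0.014).

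Of the further TALE-class partners of Hox and Meis, 11 were tested and 2 were higher and 1 lower in Q111-C than in Q7-C (27.3%, beside 15.2% of all genes). Their median log2 fold change was -0.10, beside -0.02 for all genes tested. Irx3, a factor of the neural tube and limb, was higher in Q111-C (2.25 ± 0.406 TPM across Q7-C and 37.5 ± 1.25 TPM in Q111-C, log2 fold change 3.75, SE 0.24, adjusted p = 9.32e-07). Irx2 was at or under the floor in STHdhQ7 cells and stood at 1.01 ± 0.224 TPM in Q111-C (adjusted p = 3.34e-05). Mkx, a tendon factor, was lower there (log2 fold change -1.68, SE 0.26, adjusted p = 0.000576). Between the treated lines 3 of the 11 were called, each as higher in Q111-T (27.3%, near the 24.5% of all genes).

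Sox genes differed between the lines in both directions. Of 10 tested, 5 were higher and 4 lower in Q111-C, beside 7.62% and 7.61% of all genes. Sox2, the pluripotency and neural progenitor factor (ENSMUSG00000074637, chr3:34650405-34652461), was measured at 33.9, 44.6 and 48.8 TPM across Q7-C and 5.41, 4.02 and 3.14 TPM in Q111-C. It was 12.4-fold lower in Q111-C (log2 -3.64, SE 0.31, edgeR adjusted p = 7.63e-06) and 5.89-fold lower in Q111-T, against Q7-T values of 34.4, 10.6 and 26.5 TPM. The lowest STHdhQ7 library, Q7-T replicate 2, was still above every STHdhQ111 library. Sox21, which is related to Sox2, was 8.41-fold lower in Q111-C (4.74, 6.52 and 7.57 against 1.35, 0.745 and 0.639 TPM, adjusted p = 0.00091). Its call between the treated lines (adjusted p = 0.0222) was lost under 9 of 22 alternatives (adjusted p up to 0.281), among them the omission of any 1 of 5 of the 12 libraries. There, Q7-T replicate 2 lay below all 3 Q111-T libraries, at 0.406 TPM.

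The SoxC genes Sox4, Sox11 and Sox12, which act in differentiating neurons, did not move together. Sox11 (chr12:27334264-27342574) was measured at 4.57, 4.25 and 5.25 TPM across Q7-C and 0.106, 0.0680 and 0.0678 TPM in Q111-C, 71.7-fold lower (log2 fold change -6.17, SE 0.37, adjusted p = 6.77e-07), and it was 217-fold lower in Q111-T (adjusted p = 3.02e-07). Sox4 went the other way, from 10.4, 11.7 and 14.2 TPM across Q7-C to 26.2, 36.5 and 31.0 TPM in Q111-C (2.07-fold higher, adjusted p = 0.000847). That difference is near the fold needed for a call, and without Q111-C replicate 2 it was 0.97 on the log2 scale and no longer called. Sox12 stood at 19.7, 21.2 and 23.5 and 18.7, 18.6 and 17.9 TPM and was not called there (adjusted p = 0.057). Between the treated lines it was 2.38-fold lower in Q111-T (adjusted p = 0.0004), a call that limma did not make on the TPM scale.

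The SoxD genes Sox5, Sox6 and Sox13, which act in cartilage and in the nervous system, also differed in direction. Sox6 (chr7:115470872-116031047) was 40.2-fold lower in Q111-C (2.77, 5.05 and 6.15 TPM across Q7-C, 0.162, 0.115 and 0.135 TPM in Q111-C, adjusted p = 7e-06). Sox5 was 9.28-fold higher there (0.228, 0.205 and 0.191 against 2.25, 2.55 and 2.65 TPM, adjusted p = 0.00133). Sox13 was at or under the floor in Q7-C and at least 18.9-fold higher in Q111-C (1.66, 1.92 and 1.45 TPM, adjusted p = 0.000973). Within this subgroup the lines thus had opposite leading genes.

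Sox9, the cartilage, glial and gonadal factor (ENSMUSG00000000567, chr11:112782224-112787760), was measured at 1.60, 1.52 and 2.02 TPM across Q7-C and 17.2, 23.4 and 18.8 TPM in Q111-C (9.18-fold higher, log2 fold change 3.20, SE 0.20, adjusted p = 6.96e-07). It remained 5.64-fold higher in Q111-T relative to Q7-T (adjusted p = 3.34e-06). Sox15 was called at a low level in Q111-C (at least 2.04-fold, adjusted p = 0.0266). The Sox15 call was lost under 7 of 21 alternatives (adjusted p up to 0.0849), among them the omission of any 1 of 4 of the 12 libraries.

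Pax genes gave some of the widest contrasts. Pax9, a factor of teeth, thymus and vertebral column (ENSMUSG00000001497, chr12:56691767-56712822), was measured at 0.546, 0.288 and 0.281 TPM across Q7-C and 20.2, 21.2 and 21.8 TPM in Q111-C, and at 0.470 ± 0.0586 and 15.5 ± 0.600 TPM after treatment. It was 42.5-fold higher in Q111-C (log2 5.41, SE 0.39, edgeR adjusted p = 2.42e-06). Pax2 and Pax6 showed the reverse. Pax2, which acts in the midbrain, the kidney and the eye (chr19:44756045-44837871), stood at 11.1, 15.7 and 15.2 TPM across Q7-C and 0.376, 0.477 and 0.283 TPM in Q111-C (45.2-fold lower, adjusted p = 6.59e-06). Pax6, the forebrain and eye factor whose upstream stretch is shown above, stood at 4.55, 7.73 and 8.62 TPM across Q7-C and 0.149, 0.201 and 0 TPM in Q111-C (71.3-fold lower, adjusted p = 0.000522) and was 107-fold lower between the treated lines (adjusted p = 0.000269). Pax3, a neural crest and muscle factor, was low in all groups and was called between the treated lines only (0.0688 ± 0.0619 TPM in Q7-T, 1.13 ± 0.00753 TPM in Q111-T, adjusted p = 0.00299), a call lost with limma on log2(TPM + 1).

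Six-family proteins bind DNA and Eya proteins act on them as coactivators. All 4 Six-family genes tested, of 5 in the family, were called between the nontreated lines, in both directions, beside 15.2% of all genes. Six4 was lower in Q111-C, at 3.51, 7.20 and 8.19 against 3.20, 3.02 and 2.85 TPM (2.50-fold, adjusted p = 0.00141), a call that limma did not make on the TPM scale. Six2, which keeps nephron progenitors undifferentiated, was 12.7-fold higher in Q111-C (0.292, 0.378 and 0.278 against 4.69, 5.42 and 5.19 TPM, adjusted p = 0.000253). Six5 was 2.15-fold higher (4.49, 4.04 and 4.45 against 11.9, 12.5 and 11.1 TPM, adjusted p = 0.0014).

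Eya4, mutated in a form of hearing loss, was called between the lines in both conditions (ENSMUSG00000010461, chr10:23102963-23350786). Its levels were 1.14, 1.67 and 1.63 TPM across Q7-C and 38.3, 43.8 and 46.7 TPM in Q111-C, with no overlap (23.4-fold, log2 fold change 4.55, SE 0.30, adjusted p = 1.13e-06). Eya3 stood at 16.8 ± 5.33 TPM across Q7-C and 30.4 ± 2.19 TPM in Q111-C and passed the adjusted p but not the fold (log2 fold change 0.57, SE 0.17, adjusted p = 0.0352). Eya2 was listed at 0 in all Q7-C libraries and stood at 0.751, 0.862 and 0.703 TPM in Q111-C, at least 6.06-fold higher (adjusted p = 0.0232). The Eya2 call was lost under 7 of 21 alternatives (adjusted p up to 0.0727), among them the omission of any 1 of 5 of the 12 libraries. Eya1 stayed below the filter (at most 0.179 TPM). Of the partners of these families and of the LIM factors, 7 were tested, 2 were lower in Q111-C (Lmo1 with a log2 fold change -1.68, SE 0.42, adjusted p = 0.0124, and Lmo4 with a log2 fold change -1.68, SE 0.19, adjusted p = 5.76e-05) and 0 were higher (1 at an unadjusted p under 0.05, and 0 by limma or DESeq2), with a median log2 fold change of -0.25. The 2 are 28.6% of the 7, beside 15.2% of all genes. In treated cells 1 was higher and 1 lower in Q111-T, also 28.6%, near the 24.5% of all genes.

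The Dlx and Lhx genes include those that specify neurons of the ganglionic eminences. Dlx1 and Dlx2, which drive the differentiation of striatal precursors, were present at a few TPM in both lines and were called in 0 of 5 comparisons each by edgeR, limma or DESeq2, with unadjusted p under 0.05 in 0 and 2 of them. Dlx1 stood at 3.48 ± 1.26 TPM across Q7-C and 3.87 ± 0.575 TPM in Q111-C (adjusted p = 0.734), and Dlx2 at 7.85 ± 0.830 and 5.76 ± 0.309 TPM (adjusted p = 0.0967). Dlx3, a factor of skin and teeth, was 48.5-fold lower in Q111-C (3.64, 3.78 and 3.97 TPM across Q7-C, 0, 0.0437 and 0.237 TPM in Q111-C, adjusted p = 0.000864). Between the treated lines its call was lost under 4 of 22 alternatives (adjusted p up to 0.0685), among them the omission of any 1 of 2 of the 12 libraries. Dlx4 was 3.11-fold lower in Q111-C (1.12, 1.65 and 1.43 against 0.475, 0.570 and 0.615 TPM, adjusted p = 0.003), a call lost with limma on log2(TPM + 0.5) and log2(TPM + 1). Dlx6 stayed below the filter (at most 0.206 TPM).

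Lhx2 was the most abundant of these factors after Sox2 in Q7-C (ENSMUSG00000000247, chr2:38339281-38369733). It patterns the cortex and the eye, and its upstream stretch is shown above. It was measured at 28.5, 34.9 and 37.3 TPM across Q7-C and 1.56, 1.90 and 1.14 TPM in Q111-C, and at 25.4, 12.5 and 23.3 TPM in Q7-T and 1.66, 1.67 and 1.90 TPM in Q111-T. All 6 STHdhQ7 libraries lay above all 6 STHdhQ111 libraries, 27.1-fold between the nontreated lines (log2 -4.76, SE 0.21, edgeR adjusted p = 1.01e-07) and 14.9-fold between the treated lines (adjusted p = 2.85e-07). Lhx1, a factor of the kidney and of the embryonic head, stood at 2.99, 5.01 and 5.73 TPM in Q7-C and was at or under the floor in Q111-C, at least 65.1-fold lower (adjusted p = 2.23e-05). Lhx9, which acts in the gonads and the limbs, was 2.93-fold lower in Q111-C (0.501, 0.723 and 0.707 against 0.174, 0.324 and 0.306 TPM, adjusted p = 0.00191), a call lost in the same 2 limma settings. Lhx9 passed the filter through Q7-C alone. Lhx6, which marks interneurons of the medial ganglionic eminence, was 2.10-fold higher (0.594, 1.98 and 1.81 against 3.59, 3.71 and 3.60 TPM, adjusted p = 0.0339). The Lhx6 call was lost under 8 of 22 alternatives (adjusted p up to 0.0756), among them the omission of any 1 of 4 of the 12 libraries.

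Tbx15, which patterns the skeleton and the skin, was the most abundant factor after Hoxb9 in Q111-C (ENSMUSG00000027868, chr3:99240381-99354259). It was measured at 12.2, 22.3 and 26.0 TPM across Q7-C and 102, 96.0 and 98.4 TPM in Q111-C, 4.06-fold higher (log2 fold change 2.02, SE 0.19, adjusted p = 1.73e-05). Tbx20, a factor of the heart, was 78.4-fold lower in Q111-C (2.00, 4.76 and 7.05 TPM across Q7-C, 0.0955, 0.0939 and 0.0159 TPM in Q111-C, adjusted p = 3.05e-05) and 133-fold lower in Q111-T (adjusted p = 1.56e-05). In Q7-C its lowest value was that of replicate 1 and in Q7-T that of replicate 2, the libraries that stood apart. The repressor Tbx3 was 3.17-fold lower in Q111-C (2.27, 2.69 and 3.31 against 0.697, 1.31 and 1.22 TPM, adjusted p = 0.00296), a call that limma on the TPM scale did not make. Tbx18 was at 4.80 ± 1.69 and 7.68 ± 1.17 TPM and was not called.

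**Figure D3:**
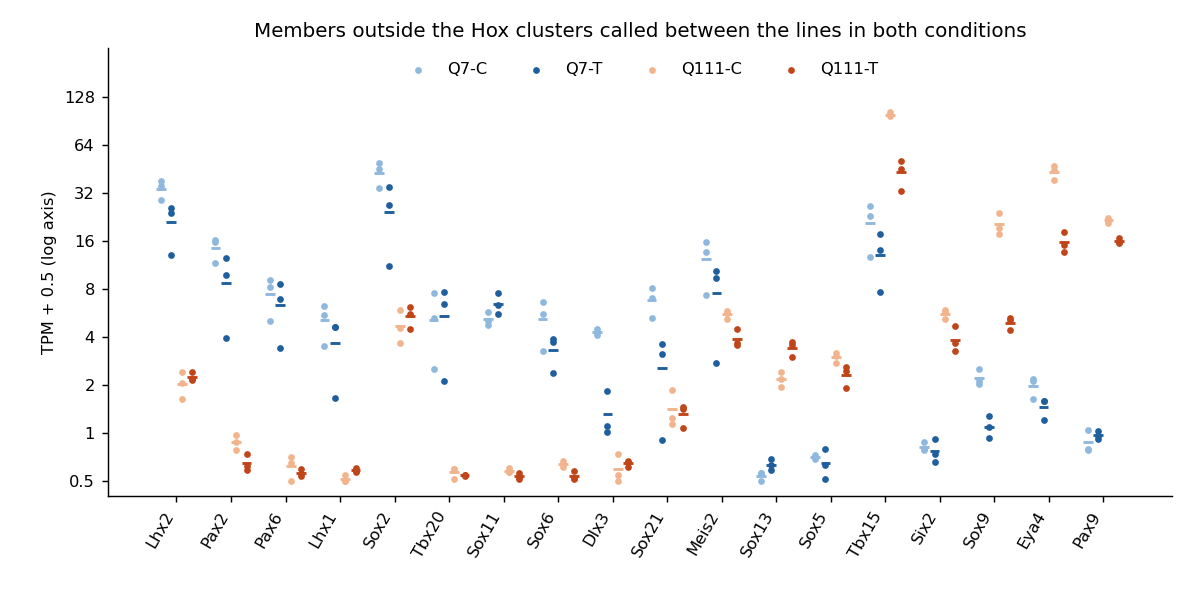
TPM + 0.5 on a log axis for 18 of the 19 patterning factors outside the Hox clusters that were called between the lines in both conditions, with 1 point per library and a line at the mean of each group. The 11 factors from Lhx2 to Meis2 are higher in STHdhQ7 cells and the 7 from Sox13 to Pax9 are higher in STHdhQ111 cells by group mean, while Q7-T replicate 2 lies below all Q111-T points for Sox21 and Meis2.

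Patterning factors outside the named families were counted for comparison. Of 14 forebrain and striatal factors tested, 2 were higher and 7 lower in Q111-C than in Q7-C, with a median log2 fold change of -1.13 beside -0.02 for all genes. Nr2f1 stood at 18.5 ± 3.22 TPM across Q7-C and 0.901 ± 0.0256 TPM in Q111-C, and Otx1 at 9.75 ± 3.05 and 0.970 ± 0.196 TPM. Zic1 was at 0.0537 ± 0.0367 TPM across Q7-C and 9.66 ± 0.816 TPM in Q111-C. Bcl11b and Foxp2, which are used in striatal development, did not exceed 0.0407 and 0.0191 TPM in any library. Of 15 neural crest and mesenchymal factors tested, 6 were higher and 4 lower in Q111-C, with a median of 0.56. Snai2 and Osr1 were among the higher (10.5 ± 2.40 against 57.1 ± 7.38 TPM, and 4.61 ± 1.34 against 26.1 ± 1.56 TPM), and Tfap2a and Shox2 among the lower (log2 fold change -3.25, SE 0.33, adjusted p = 2.96e-05 and log2 fold change -2.86, SE 0.22, adjusted p = 3.9e-06). The shares called were 64.3% and 66.7% of these lists, beside 15.2% of all genes. In treated cells 2 forebrain factors were higher and 6 lower in Q111-T, and 6 neural crest and mesenchymal factors were higher and 5 lower. These are 57.1% and 73.3% of the lists, beside 24.5% of all genes.

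Regulators of Hox clusters were counted in the same way. Of 35 Polycomb and trithorax genes, all of which were tested, 0 were called as higher by edgeR (1 by limma and 0 by DESeq2) and 2 as lower in Q111-C (Pcgf5 with a log2 fold change -1.60, SE 0.17, adjusted p = 3.2e-05, and Dpy30 with a log2 fold change -1.54, SE 0.35, adjusted p = 0.00712; 5.71% against 15.2% of all genes), and their median log2 fold change was 0.00. The 2 with higher values at an unadjusted p under 0.05, Ezh1 and Phf19, passed the adjusted p but not the fold (log2 fold change 0.85, SE 0.18, adjusted p = 0.00543, and log2 fold change 0.68, SE 0.14, adjusted p = 0.00486). Between the treated lines 5 were higher in Q111-T (Suz12, Rnf2, Mtf2, Pcgf3 and Kmt2c) and 2 lower (Dpy30 and Cbx6), 20.0% against 24.5% of all genes. Of 16 retinoic acid and Cdx genes tested, 1 was higher (Dhrs3) and 6 were lower in Q111-C, with a median of -0.49. That is 43.8% of the list. In treated cells 2 were higher (Dhrs3 and Stra6) and 3 lower (Cdx2, Crabp1 and Rxrb), 31.2% of the list beside 24.5% of all genes. Stra6, a retinol transporter, was lower in Q111-C (log2 fold change -1.93, SE 0.52, adjusted p = 0.0201) but higher in Q111-T (log2 fold change 2.61, SE 0.55, adjusted p = 0.0033), and its responses differed between the lines (log2 fold change 4.53, SE 0.76, adjusted p = 0.00536 for the interaction). Crabp1, a retinoic acid binding protein, stood at 174 ± 55.2 TPM across Q7-C and 2.38 ± 1.14 TPM in Q111-C. Cdx2, which switches on Hox genes of the trunk, stood at 21.04 ± 1.68 TPM across Q7-C and 0.243 ± 0.134 TPM in Q111-C. The direction of Cdx2 was opposite to that of the HoxA and HoxB genes, and its part in their levels was not tested.

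Treatment with IFNγ/LPS was compared first in STHdhQ7 cells. Between Q7-T and Q7-C, 4 were called (2 in each direction, 4.08% of the 98 and 6.67% of the 60 tested), against 4.04% of all genes tested, 2.93% as higher and 1.11% as lower, and 22 had an unadjusted p under 0.05. The groups did not overlap for 18 of the 60 factors tested, and for 14.4% of all genes. Sox9 fell from 1.60, 1.52 and 2.02 TPM in Q7-C to 0.768, 0.433 and 0.583 TPM in Q7-T (2.57-fold, log2 fold change -1.36, SE 0.19, adjusted p = 0.000781 by edgeR). All 3 treated libraries lay below the nontreated ones, and the call was lost with only the groups compared in the fit and with limma on log2(TPM + 1) (adjusted p up to 0.082). Hoxb2 fell from 0.556, 0.462 and 0.486 to 0.219, 0.111 and 0.211 TPM (log2 fold change -1.32, SE 0.29, adjusted p = 0.02). The Hoxb2 call was lost under 7 of 22 alternatives (adjusted p up to 0.403), among them the omission of any 1 of 3 of the 12 libraries. Sox4 rose from 10.4, 11.7 and 14.2 to 27.3, 17.1 and 20.4 TPM (log2 fold change 1.02, SE 0.17, adjusted p = 0.00336). Its fold went under that needed for a call when any 1 of 3 of the 12 libraries was left out, with log2 fold changes from 0.93 to 0.98, and in all the call was lost under 8 of 22 alternatives (adjusted p up to 0.0706). Hoxa3 was also called (adjusted p = 0.000835), but it was listed at 0 in Q7-C and at or under the floor in Q7-T, so that no fold is given, and the call was lost under 5 of 22 alternatives (adjusted p up to 0.928).

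In STHdhQ111 cells 13 factors were called between Q111-T and Q111-C (6 higher and 7 lower, 13.3% of the 98 and 21.7% of the 60 tested), against 11.2% of all genes tested, 8.28% as higher and 2.96% as lower. By direction, 10.0% of the 60 were higher and 11.7% lower. The filter favoured such calls as well: 5 of the 60 reached 0.5 TPM in 1 group only, and 4 of these were among the 13 (Pax5 and Tbx2 in Q111-T, Eya2 and Dlx5 in Q111-C), so the share of the 60 is given as a description. The groups did not overlap for 39 of the 60 factors tested and for 49.6% of all genes. Of the Hox genes 1 was called, Hoxc13, and 0 of the 17 HoxA and HoxB genes tested, of which 1 (Hoxa2) had an unadjusted p under 0.05 by edgeR and was called by limma on log2(TPM + 0.5) and by DESeq2. Hoxa2 stood at 7.94, 7.06 and 7.42 TPM in Q111-C and 1.49, 2.15 and 1.53 TPM in Q111-T, groups that did not overlap, with a log2 fold change of -1.98 (SE 0.72, adjusted p = 0.0844) that did not pass.

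The higher factors were mostly at low levels before treatment. Hoxc13, a factor of hair and nails (ENSMUSG00000001655, chr15:102921103-102928814), rose from 0.593, 0.453 and 0.756 TPM in Q111-C to 8.22, 9.94 and 9.34 TPM in Q111-T (16.4-fold, log2 fold change 4.03, SE 0.91, adjusted p = 0.00872 by edgeR). It was at or under the floor in Q7-T. It accounts for most of the rise of the HoxC sum in STHdhQ111 cells, from 3.27 ± 0.243 to 12.5 ± 1.12 TPM. The other HoxC genes tested were not called. Hoxc10 stood at 0.128, 0.239 and 0.325 TPM in Q111-C and 0.115, 0.0632 and 0.448 TPM in Q111-T (adjusted p = 0.971). Hoxc6 stood at 1.21, 0.326 and 1.43 TPM in Q111-C and 1.84, 2.36 and 1.99 TPM in Q111-T (adjusted p = 0.146). Hoxc12 and Hoxc11, the nearest neighbours of Hoxc13, were below the filter and not tested. Hoxc6 was called between the treated lines (adjusted p = 0.0483). The Hoxc6 call was lost under 11 of 22 alternatives (adjusted p up to 0.122), among them the omission of any 1 of 8 of the 12 libraries.

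Of 6 Tbx genes tested, 3 were called as higher and 1 as lower in treated STHdhQ111 cells, beside 8.28% and 2.96% of all genes. Of the higher 3, Tbx2 passed the filter through Q111-T alone, and the call of Tbx6 was lost under 7 of 22 alternatives. The repressor Tbx2 (ENSMUSG00000000093, chr11:85832551-85841948) rose from 0.261, 0.486 and 0.395 TPM in Q111-C to 3.73, 3.10 and 4.41 TPM in Q111-T (10.4-fold, log2 fold change 3.38, SE 0.51, adjusted p = 0.00071). Its values in STHdhQ7 cells were 0.126, 0.279 and 0.339 TPM without and 0.0675, 0.213 and 0.213 TPM with treatment. Tbx3, its close relative, rose 3.70-fold from 0.697, 1.31 and 1.22 to 4.20, 2.60 and 4.52 TPM (adjusted p = 0.00173). All 3 Q111-T libraries lay within the range of Q7-T, whose values were 5.51, 1.47 and 5.31 TPM. Tbx6, a factor of the paraxial mesoderm, rose from 0.631, 0.269 and 0.401 to 1.48, 1.56 and 1.77 TPM (adjusted p = 0.0324). The alternatives without the Tbx6 call (adjusted p up to 0.137) included the omission of any 1 of 5 of the 12 libraries. Tbx15 fell from 102, 96.0 and 98.4 to 44.4, 32.6 and 50.5 TPM (log2 fold change -1.13, SE 0.19, adjusted p = 0.0012). Tbx18 passed the adjusted p but not the fold (log2 fold change -0.82, SE 0.20, adjusted p = 0.013).

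Pax5, which commits cells to the B lymphocyte lineage and acts at the border of midbrain and hindbrain (ENSMUSG00000014030, chr4:44524757-44710487), was at or under the floor in Q7-C, Q7-T and Q111-C. In Q111-T it was measured at 1.91, 0.958 and 1.44 TPM, at least 38.5-fold above Q111-C (adjusted p = 0.000904) and at least 29.8-fold above Q7-T (adjusted p = 0.000641). Lhx1 was called as higher in Q111-T (adjusted p = 0.0461), from 0, 0.0420 and 0 TPM in Q111-C to 0.0659, 0.102 and 0.0800 TPM in Q111-T, but the lower bound of its fold was 1.11 and the call was lost under 17 of 22 alternatives (adjusted p up to 0.896).

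The 7 lower factors in treated STHdhQ111 cells were Sox9, Eya4, Tbx15, Six5, Eya2, Dlx5 and Sox6. Sox9 fell 4.19-fold from 17.2, 23.4 and 18.8 TPM in Q111-C to 4.72, 3.94 and 4.58 TPM in Q111-T (log2 fold change -2.07, SE 0.19, adjusted p = 1.32e-05), and was the only factor called in both lines. Eya4 fell from 38.3, 43.8 and 46.7 to 13.2, 14.6 and 17.6 TPM (log2 fold change -1.40, SE 0.26, adjusted p = 0.00296). Six5 fell from 11.9, 12.5 and 11.1 to 5.25, 4.70 and 4.59 TPM (log2 fold change -1.18, SE 0.19, adjusted p = 0.00114); in Q7-T it stood at 4.18, 2.66 and 4.50 TPM. Eya2 fell from 0.751, 0.862 and 0.703 TPM to a listed 0 in all 3 Q111-T libraries, at least 5.80-fold (adjusted p = 0.0284). The Eya2 call was lost under 8 of 21 alternatives (adjusted p up to 0.085), among them the omission of any 1 of 6 of the 12 libraries. Dlx5, a partner of Dlx2 in the ganglionic eminences, fell from 1.50, 1.58 and 0.819 to 0.191, 0.0532 and 0.246 TPM (adjusted p = 0.0421). The Dlx5 call was lost under 10 of 21 alternatives (adjusted p up to 0.127), among them the omission of any 1 of 7 of the 12 libraries. Sox6, already low, fell from 0.162, 0.115 and 0.135 to 0.0148, 0.0200 and 0.0746 TPM (adjusted p = 0.0109), a call that limma did not make on the TPM scale (adjusted p up to 0.778). In the same cells the summed mesenchymal markers stood at 1819 to 2067 TPM in Q111-C and 599 to 923 TPM in Q111-T, and their part in these changes was not tested.

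**Figure D4:**
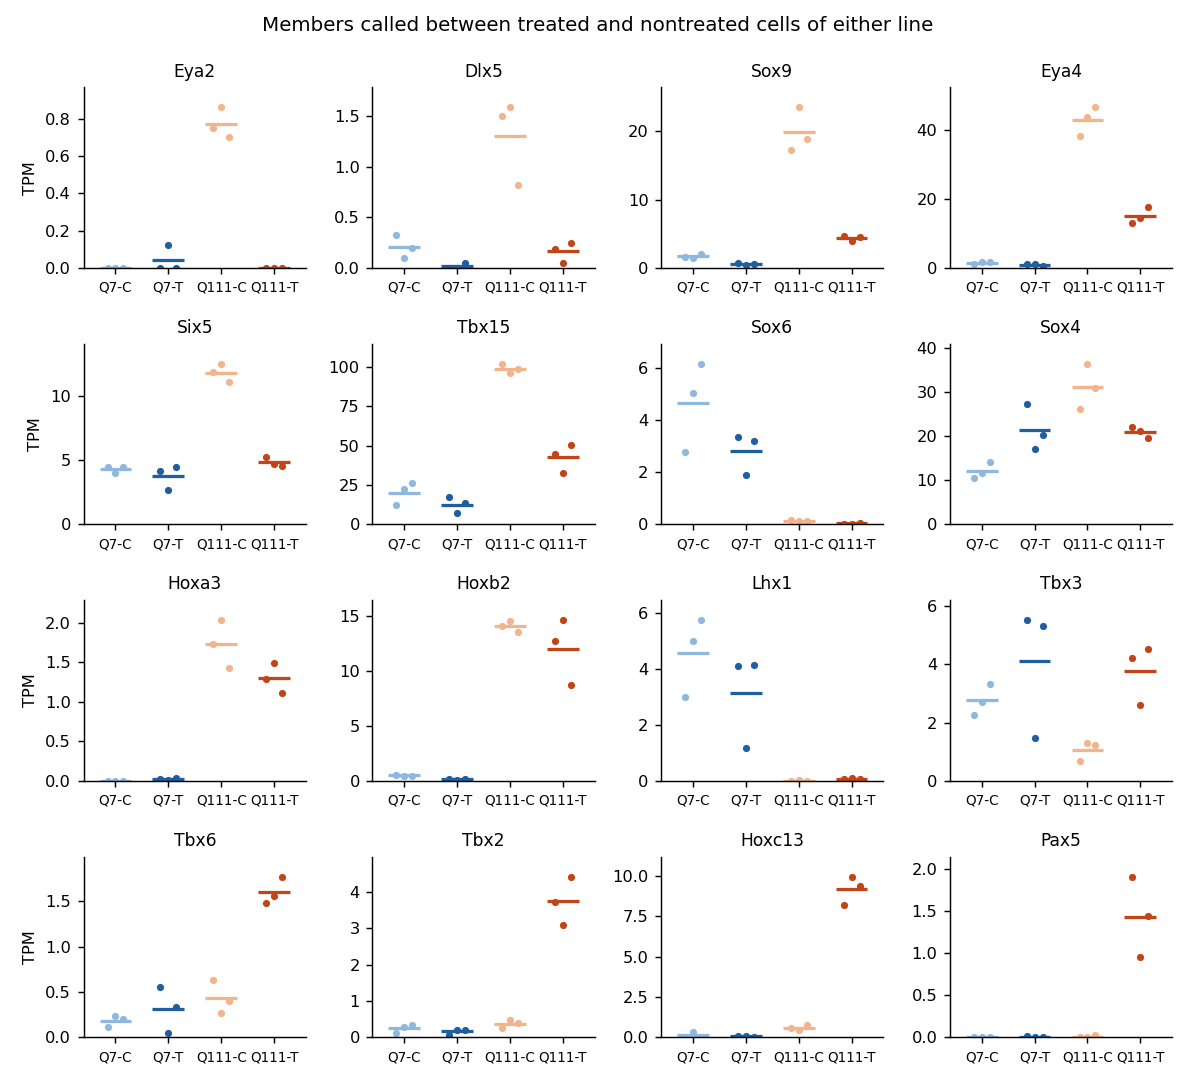
TPM in each library of the 16 patterning factors called between treated and nontreated cells of either line, on linear axes that start at 0, with a line at the mean of each group of 3. Hoxc13, Pax5 and Tbx2 are high in Q111-T alone, and Sox9 is lower with treatment in both lines.

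A difference between the responses of the lines was tested as the interaction of line and treatment. Of the 98 factors 5 were called (1 with a higher and 4 with a lower response in STHdhQ111 cells, 5.1% of the 98 and 8.33% of the 60 tested), against 4.71% of all genes tested, and 26 had an unadjusted p under 0.05. Of the 5, 2 reached 0.5 TPM in 1 group only (Tbx2 in Q111-T and Eya2 in Q111-C). The filter favoured such calls, so the share of the 60 is given as a description. The split depended on the tool: DESeq2 called 6 with a higher and 4 with a lower response, and limma on log2(TPM + 0.5) 4 and 6. Tbx2 responded more strongly in STHdhQ111 cells, by 3.62 on the log2 scale (SE 0.70, edgeR adjusted p = 0.0115). Sox4 rose in STHdhQ7 cells and stood at a lower mean in treated STHdhQ111 cells (26.2, 36.5 and 31.0 TPM in Q111-C and 22.2, 21.1 and 19.7 TPM in Q111-T). Its responses differed by -1.48 (SE 0.24, adjusted p = 0.00448). For Six5 the difference was -1.12 (SE 0.27, adjusted p = 0.0333). The Six5 call was lost under 12 of 21 alternatives (adjusted p up to 0.0899), among them the omission of any 1 of 8 of the 12 libraries. Eya2 and Hoxa3 were called as well, with groups at or under the floor and therefore no fold (adjusted p = 0.0453 and 0.00248). The Eya2 interaction was lost under 14 of 20 alternatives (adjusted p up to 1), among them the omission of any 1 of 10 of the 12 libraries, and that of Hoxa3 under 4 of 21 (adjusted p up to 0.479). The responses of Hoxc13 and Pax5 did not differ between the lines at the threshold (adjusted p = 0.066 and 0.1), although both genes were at or under the floor in Q7-T. The interaction of Sox9 did not pass either (log2 -0.70, SE 0.26, adjusted p = 0.153).

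**Figure D5:**
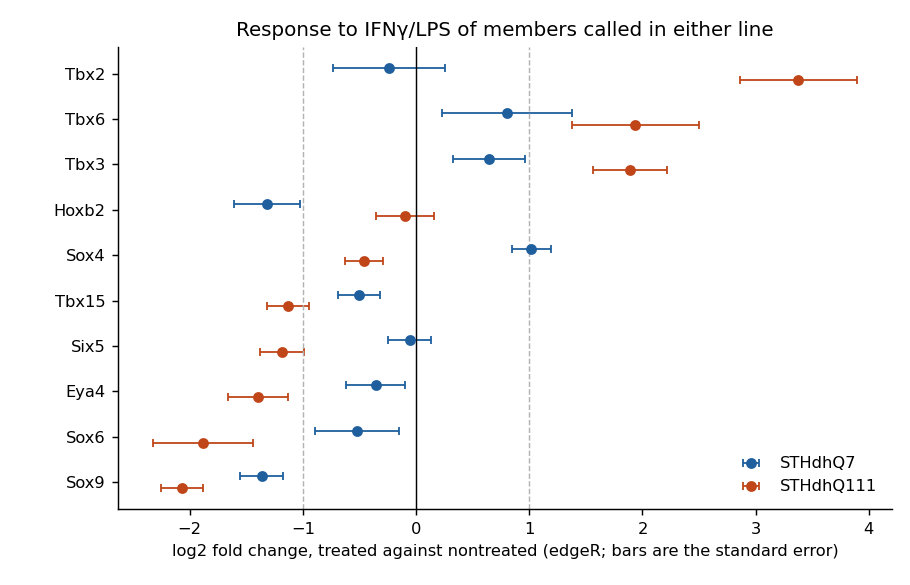
Log2 fold change of treated against nontreated cells in each line (points, edgeR) with its standard error (bars), for the 10 factors called in either line whose groups all lay above the floor of 12 estimated counts. Dashed lines mark the fold needed for a call; Tbx2 lies at 3.38 in STHdhQ111 cells and at -0.24 in STHdhQ7 cells, and Sox4 lies at -0.46 and 1.02.

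Partner and regulator lists were also counted across treatment. In STHdhQ7 cells 0 of 11 TALE partners and 0 of 35 Polycomb and trithorax genes were called by edgeR, limma or DESeq2, and 3 of each had an unadjusted p under 0.05 by edgeR. In STHdhQ111 cells 3 TALE partners were higher (Irx2, Mkx and Pbx4) and 1 lower (Irx3), and 3 Polycomb genes were higher (Eed, Pcgf3 and Pcgf5) and 1 lower (Cbx2), 11.4% of the 35 against 11.2% of all genes tested, a share near the background. Eed, a core subunit of the Polycomb repressive complex that methylates histone H3, stood at 26.0 ± 1.84 TPM in Q111-C and 55.7 ± 1.77 TPM in Q111-T (log2 fold change 1.20, SE 0.13, adjusted p = 5.77e-05). Lmo4, a LIM-only partner, rose from 14.7 ± 0.872 to 42.1 ± 5.52 TPM (log2 fold change 1.63, SE 0.19, adjusted p = 8.65e-05). Of the forebrain factors 4 were lower in treated STHdhQ111 cells and 1 in treated STHdhQ7 cells. Of the neural crest and mesenchymal factors 1 was lower in each line, Osr1 in STHdhQ111 cells (log2 fold change -1.19, SE 0.20, adjusted p = 0.00156) and Shox2 in STHdhQ7 cells (log2 fold change -1.55, SE 0.21, adjusted p = 0.000732). Of the retinoic acid and Cdx genes 3 were higher and 1 lower in STHdhQ111 cells and 2 were lower in STHdhQ7 cells. In STHdhQ111 cells the shares called were 36.4% of the TALE partners, 28.6% of the forebrain factors, 6.67% of the neural crest and mesenchymal factors and 25% of the retinoic acid and Cdx genes, beside the same 11.2%. In STHdhQ7 cells the last 3 were 7.14%, 6.67% and 12.5%, beside 4.04%.

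The 38 factors below the filter were low, and 18 of them were at or under the floor of 12 estimated counts in every library while 20 exceeded it in at least 1, with up to 192 counts for Pax8. Of the 38, 32 stayed under 0.5 TPM in every library. Pax8, a factor of thyroid and kidney, had 0.172, 0.288 and 0.179 TPM in Q7-C, 0.478, 0.713 and 0.622 TPM in Q7-T, 0.382, 0.115 and 0.0808 TPM in Q111-C and 0.108, 0.208 and 0.0707 TPM in Q111-T, and was not tested. Hoxc4 (0.726 TPM), Hoxc9 (0.619), Hoxd8 (0.563), Hoxc8 (0.562) and Sox7 (0.514) also exceeded 0.5 TPM in at least 1 library, where their highest values are given. Hoxc8 stood at 0.562, 0.318 and 0.561 TPM across Q7-C and 0.202, 0.0788 and 0.0507 TPM in Q111-C. The neural crest and oligodendrocyte factor Sox10 did not exceed 0.158 TPM and the forebrain factor Six3 did not exceed 0.00962 TPM. The rest were Hoxa9, Hoxa11, Hoxa13, Hoxc5, Hoxc11, Hoxc12, the 6 other HoxD genes, Dlx6, Eya1, Lhx3, Lhx4, Lhx5, Lhx8, Pax7, Sox3, Sox8, Sox14, Sox17, Sox18, Sox30, Tbx1, Tbx4, Tbx10, Tbx19 and Tbx21, with highest values from 0.00448 TPM for Hoxd3 to 0.476 TPM for Hoxc11.

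All 98 factors are in the GENCODE M21 annotation of the same genome build, GRCm38, from which the positions above can be read as gene bodies, and 88 of them with identical ends. Of them 11 share exon bases with another gene on the same strand, among them Hoxa2, Hoxa3, Hoxc10 and Meis1, and 39 overlap a gene on the opposite strand, such as Hoxb5os at Hoxb5 and Hoxb6. The libraries were stranded, but whether the counting used the strand is not given in the sources used here, so that reads of an antisense partner could be included in the values of these 39.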

How the data were processed

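RNA-seq libraries were stranded, poly(A)-selected and paired-end, 3 for each of Q7-C, Q7-T, Q111-C and Q111-T. Per the labels and the methods of the study, the authors trimmed reads with Cutadapt, aligned them to GRCm38 with HISAT2 and quantified genes with StringTie (versions not given in the sources used here). The deposited table holds TPM, scaled by the authors for transcript length and library size, and estimated counts, which the authors left unscaled and which were rounded here. Multiples of 4 are more frequent than their neighbours among low counts, so 12 counts in a library (3 read pairs of 4 counts each) were taken as the floor; a library would then hold between 14376498 and 24104458 read pairs.

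Counts of genes at 0.5 TPM or more in at least 3 libraries were fitted with edgeR 4.0.16 (R 4.3.3; TMM scaling, quasi-likelihood F-test, group means over all 12 libraries, Benjamini-Hochberg adjustment), and a call needed an adjusted p under 0.05 and a log2 fold change of at least 1 in size. SE is the log2 fold change divided by the root of F. The exact permutation test of 3 against 3 libraries cannot go below a p of 0.1 (two-sided). limma 3.58.1 on log2(TPM + pseudocount), DESeq2 1.42.0, other filters and scalings, a replicate block and leaving out each library were alternatives. The steps were tested on simulated data. No library pair of a group differed by less than sampling noise. The members and gene lists were chosen with earlier results of these data known. Members named with values were up to 25 called in a comparison by size of change, the 3 most abundant tested in each family and the extremes of each family, and members below the filter by their highest TPM; of other lists, up to 6 called genes. Bcl11b, Foxp2 and the marker genes given with values were chosen after their values were seen. A few genes that met these rules are counted but are not reported here by name or drawn.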

Additional observations from a re-analysis of the deposited data

Results flagged for a closer look

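The response to IFNγ/LPS differed between STHdhQ111 and STHdhQ7 cells for 5 patterning factors by edgeR's test of the interaction of line and treatment. Tbx2 had an interaction of 3.618 on the log2 scale. Six5 had an interaction of -1.123 and Sox4 one of -1.481. Eya2 and Hoxa3 were called with adjusted p = 0.0453 and 0.00248, and no size is given because groups of each lay at or under the floor (Q7-C and Q111-T for Eya2, Q7-C and Q7-T for Hoxa3). The means behind these tests were 0.248 and 0.164 TPM in STHdhQ7 cells and 0.381 and 3.75 TPM in STHdhQ111 cells for Tbx2, and 12.1, 21.6, 31.2 and 20.99 TPM in the same order for Sox4. Of these 5 calls, 2 were kept under every alternative tried. Tbx2 (in Q111-T) and Eya2 (in Q111-C) reached 0.5 TPM in 1 group only, and the filter favoured such calls.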

How the results depend on the processing

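No called factor changed direction under any alternative. Of the 44 called between the nontreated lines 34 kept the call under every alternative, of the 42 called between the treated lines 34, of the 13 called with treatment in STHdhQ111 cells 8, of the 4 in STHdhQ7 cells 0 and of the 5 interactions 2. Leaving out each library in turn gave 39 to 47, 38 to 44, 9 to 15, 2 to 5 and 3 to 6 calls in the same order, the lowest of the last 2 without Q7-T replicate 1 (2) and without Q7-C replicate 2 or Q111-C replicate 1 (3). Without Q7-T replicate 2 the counts were 47, 44, 15, 3 and 5, and without Q7-C replicate 1 they were 42, 42, 12, 5 and 6. The other alternatives gave 37 to 47, 34 to 44 and 9 to 15 calls in the first 3 comparisons. For treatment in STHdhQ7 cells the count of 4 became 1 with only the groups compared, 2 with limma on log2(TPM + 0.5), 1 with limma on log2(TPM + 1) and 8 with DESeq2, whose split was 3 higher and 5 lower. The 5 interactions became 10 with limma on log2(TPM + 0.5) (4 higher, 6 lower), 8 with limma on log2(TPM + 1) and 10 with DESeq2 (6 higher, 4 lower). The cause was not tested. With the replicate block the counts were 43, 41, 11 and 4, and the interactions 3. Between groups, the deviations of same-numbered libraries from their group means gave 18 correlations from -0.582 to 0.45, 7 of them over 0.1. In 4 of these 18 pairs a library correlated best with its own number. With 3 libraries a group, some of which stood apart, these correlations cannot decide whether the numbers pair the libraries. On rescaled TPM 180 of 240 group means moved by less than 1 SD. Each genotype is 1 line, and a count at the floor limits what could be seen of low factors.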
